A study of Homo sapiens with 4 samples.

Results

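The genes described here encode the RNA helicases named DHX and DDX, and the question is where their mRNAs lay when RNA bound to the fragile X protein FMRP was set against RNA of the starting lysate. The members are the probe sets whose only platform gene symbol starts with DDX or DHX followed by a number. A Y-linked gene and antisense symbols were left out, as were probe sets shared between genes. This gave 119 probe sets of 54675 on the array, or 52 of the 19775 genes with a probe set of their own. Of these probe sets, 117 belong to 50 protein-coding genes, 16 DHX and 34 DDX, and each of 2 noncoding genes has 1 probe set. The rule uses gene names alone, but this gene family was picked with earlier results of these data known.

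The 2 immunoprecipitate (IP) samples hold RNA recovered with an anti-FLAG M2 antibody from FlpIn T-Rex HEK293 cells, a human embryonic kidney line, that express FMRP carrying a FLAG and HA tag. The 2 lysate samples hold total RNA collected from the same kind of lysate before the IP. In both groups the stable transgene was switched on with 1 µg/ml doxycycline for 16 h, so the lysates also contain the tagged protein, and IPs were washed at 300 mM KCl. Each sample was hybridized to its own Affymetrix U133 Plus 2.0 array after labelling of 2 µg RNA. No IP from cells without tagged FMRP was analysed here, so RNA that is recovered without FMRP is not separated from RNA bound to it. The labels name neither separate cultures nor batches, so p-values measure only the spread between these samples, which may be technical, and the number of arrays limits the precision.

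Most helicases of both families use ATP to remodel RNA duplexes and RNA-protein complexes. The families are named after a short amino acid motif of their ATP-binding core. Members here were taken by gene name and not by this motif, and DDX11 among them is a DNA helicase. DEAD-box proteins (DDX) mostly open short duplexes locally, whereas DEAH-box proteins (DHX) mostly move along single-stranded RNA and are often switched on by partners with a G-patch domain. Members of both families act in pre-mRNA splicing, ribosome assembly, mRNA export, translation and the sensing of foreign RNA. FMRP is an RNA-binding protein that associates with polyribosomes. The measurements below concern the mRNAs that encode the helicases, not the helicase proteins.

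Values are log2 probe set signals. The IP arrays correlated at r = 0.992 with each other and the lysate arrays at 0.993, against 0.873 to 0.903 between an IP and a lysate array, across genes, which are not independent replicates. Probe sets whose mean signal fell under 4.70, the midpoint of the whole array, were set aside, and the brightest of the remaining ones stood for its gene, which left 13157 genes for the test. Of the 50 helicase genes, 45 were tested, namely all 16 DHX genes and 29 of the 34 DDX genes. The targeted gene FMR1 stood at 9.28 and 9.03 in the IP and at 9.64 and 9.51 in the lysate, on a probe set that can cross-hybridize. Signals of VIM, KRT8, KRT18 and NEFL had group means of 9.75 or higher, and the KRT8 and KRT18 probe sets can cross-hybridize as well. PAX2 stood at 6.48 in the IP and 6.28 in the lysate, LHX1 at 4.88 and 4.96, near the minimum, and NEFM was below it. Of the markers of other cell types, PTPRC, CD3E, ALB, APOA1 and DCN had means over the 4 arrays under the minimum, while HBB at 5.87 in the IP and 5.56 in the lysate, and COL1A1 at 7.47 and 7.15, were read by probe sets that can cross-hybridize.

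DHX mRNAs were almost uniformly higher in the FMRP IP. Of 16 DHX genes tested, 15 rose, none fell and 1 did not pass (limma across all genes, adjusted p at most 0.05), where 35.0% of all genes tested rose and 28.8% fell. No DHX gene was lower at an unadjusted p under 0.05 either. The 1 that did not pass, DHX58, cleared the signal minimum only through the lysate. At 2-fold or more, 10 DHX genes rose, against 12.5% of all genes. The median change of DHX genes was 1.09 on the log2 scale, with an interquartile range of 0.88 to 1.31, against a median of 0.08 over all genes.

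DDX mRNAs were more divided. Of 29 DDX genes tested, 17 rose, 2 fell and 10 did not pass, and 11 rose by 2-fold or more. The shares of all genes tested were 35.0% that rose, 28.8% that fell and 12.5% that rose by 2-fold or more. One of the 17, DDX60, passed the signal minimum only through the IP and so had to differ. Without DDX60, 16 of 28 DDX genes rose, 10 of them by 2-fold or more, with a median of 0.66. Over all 29, the median change was 0.73, with an interquartile range of 0.03 to 1.29. The IP arrays both lay above both lysate arrays for 15 DHX and 19 DDX genes (18 without DDX60), where the share is 45.1% of all genes, and both below for 1 DHX and 3 DDX genes, where it is 37.2%. The groups overlapped for none of the 16 DHX genes and for 7 of the 29 DDX genes, where they did for 2335 of all 13157 genes tested. The DHX gene with both IP arrays below was DHX58, which cleared the minimum only through the lysate.

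The median change of DHX genes exceeded that of DDX genes by 0.36, or by 0.43 without DDX60. Taken per IP array against the lysate mean, the DHX and DDX medians were 1.00 and 0.69 on IP replicate 1, a difference of 0.32. On IP replicate 2 they were 1.19 and 0.77, a difference of 0.42. The upper ends of both families reached similar values, and the families differed mainly in their lower ends, since the lower quartile was 0.88 for DHX and 0.03 for DDX genes. Genes are not replicates, so this difference between families has no test and is given as a description.

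**Figure D1:**
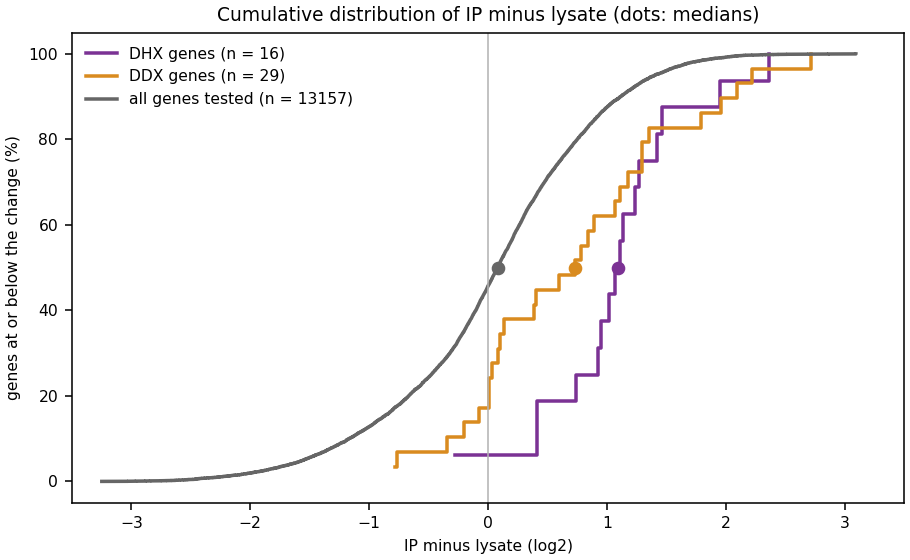
Cumulative share of genes (vertical axis, percent) at or below each IP minus lysate change (horizontal axis, log2) for the 16 DHX genes, the 29 DDX genes and all 13157 genes tested, with dots at the medians of 1.09, 0.73 and 0.08. Both family curves lie to the right of that of all genes, and the DDX curve starts to climb at lower changes than the DHX curve.

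All changes are relative to the other probe sets, because equal amounts of RNA were labelled and the medians of the deposited arrays were nearly equal, at 4.67 to 4.71. How the arrays were normalized is not stated in the sources used here. Spiked hybridization controls lay 0.48 higher on the IP arrays than on the lysate arrays. Centring each array on them lowers every change by that amount, and the median of all genes becomes -0.40. On that scale 12 DHX genes were higher and 1 lower, and 13 DDX genes were higher and 8 lower. Of all genes, 15.9% were higher and 48.5% lower. The DHX gene called lower there is DHX58, which cleared the signal minimum only through the lysate. The DDX genes called higher include DDX60, which cleared it only through the IP. The share of calls that were higher thus became 92.3% for DHX and 61.9% for DDX genes, in place of 100.0% and 89.5%, and 24.7% for all genes, in place of 54.9%. The 92.3% rests on DHX58, the 1 lower DHX call, and the DDX shares on both scales count DDX60.

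The DEAH helicases that drive the spliceosome through its steps are DHX16, DHX38, DHX8 and DHX15. DHX8, the helicase that releases spliced mRNA, had signals of 9.25 and 9.37 in the IP, against 7.23 and 7.48 in the lysate. The IP arrays stood well clear of the lysate arrays, and the rise was 3.87-fold (log2 change 1.95 ± 0.13 SE, n = 2 each, limma adjusted p = 3.49e-05). Other kept DHX8 probe sets changed by 1.82 and 0.57, and the latter did not pass in the fit over all probe sets. DHX38 changed by 1.14 and DHX16 by 0.93, which act at the second and the first catalytic step. DHX15, which takes apart spent spliceosomes, had the smallest change of the 4, with 11.51 and 11.44 in the IP against 11.06 and 11.07 in the lysate, a change of 0.41 (adjusted p = 0.0142). That call was lost without IP replicate 1 (0.37) or without either lysate array (0.40 and 0.42), and with hybridization control centring the value turned to -0.07. The other kept DHX15 probe set changed by 0.16, and neither DHX15 probe set passed in the fit over all probe sets. The listed group of 7 also held DHX35, DHX32 and DHX40, which rose by 1.07, 1.11 and 0.74. All 7 members rose, with a median of 1.07, where 35.0% of all genes rose. The other kept DHX40 probe set changed by 0.31 and did not pass in the fit over all probe sets.

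The DHX genes linked to translation and to structured RNA all rose as well, with a median of 1.35 over 6 genes, where 35.0% of all genes rose. DHX9, or RNA helicase A, which unwinds RNA duplexes and structured RNA in nucleus and cytoplasm, had signals of 11.51 and 11.60 in the IP and 9.18 and 9.20 in the lysate. The replicates lay within 0.1 of each other in both groups, and DHX9 rose 5.16-fold (log2 change 2.37 ± 0.12 SE, n = 2 each, limma adjusted p = 3.44e-05), the largest rise of a DHX gene, at rank 23 of the 13157 genes. Its other kept probe sets changed by 2.18 and 1.56. On these the IP arrays lay further apart, at 9.57 and 8.94 and at 7.34 and 6.69.

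DHX29, which helps the small ribosomal subunit to scan through structured leaders, changed by 1.27. Its other kept probe set changed by 0.44 and did not pass in the fit over all probe sets. DHX34, a factor in nonsense-mediated decay, changed by 1.42 and DHX57 by 0.95. DHX36, which resolves G-quadruplexes, changed by 0.41 (9.95 and 9.94 in the IP, 9.56 and 9.50 in the lysate, adjusted p = 0.0138). The DHX36 call was lost without lysate replicate 2 (0.38), and hybridization control centring turned the value to -0.07. Its other kept probe sets, of lower signal, changed by 0.61 and 0.70.

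DHX30, a helicase of mitochondrial and cytosolic translation, was the member whose probe sets disagreed most. On its brightest probe set it had 11.19 on both IP arrays, against 9.64 and 9.81 on the lysate arrays, a 2.76-fold rise (log2 change 1.47 ± 0.12 SE, n = 2 each, limma adjusted p = 4.91e-05). A second bright probe set stood at 10.24 and 10.41 in the IP against 9.03 and 9.31 in the lysate. Another one stood at 6.51 and 6.31 in the IP against 8.19 and 7.97 in the lysate, a change of -1.67. In the fit over all probe sets, 2 DHX30 probe sets were called higher and 1 lower, and the fourth changed by -0.14. The mean of the DHX30 probe sets changed by 0.20 and did not pass (adjusted p = 0.131). Which DHX30 transcripts each probe set reads was not analysed here.

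The nucleolar ribosome assembly factors DHX37 and DHX33 rose by 1.23 and 1.02, and both kept probe sets of each gene were called higher in the fit over all probe sets. The DHX gene that did not pass was DHX58, a regulator of RIG-I-like sensing of viral RNA, at 4.85 and 4.54 in the IP and 4.93 and 5.01 in the lysate. The IP mean of DHX58 was 4.69, just under the minimum of 4.70, and the lysate mean was 4.97. DHX58 thus entered the test only through the lysate. Its outcome is no result, although it is counted among the DHX genes tested and in their median.

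**Figure D2:**
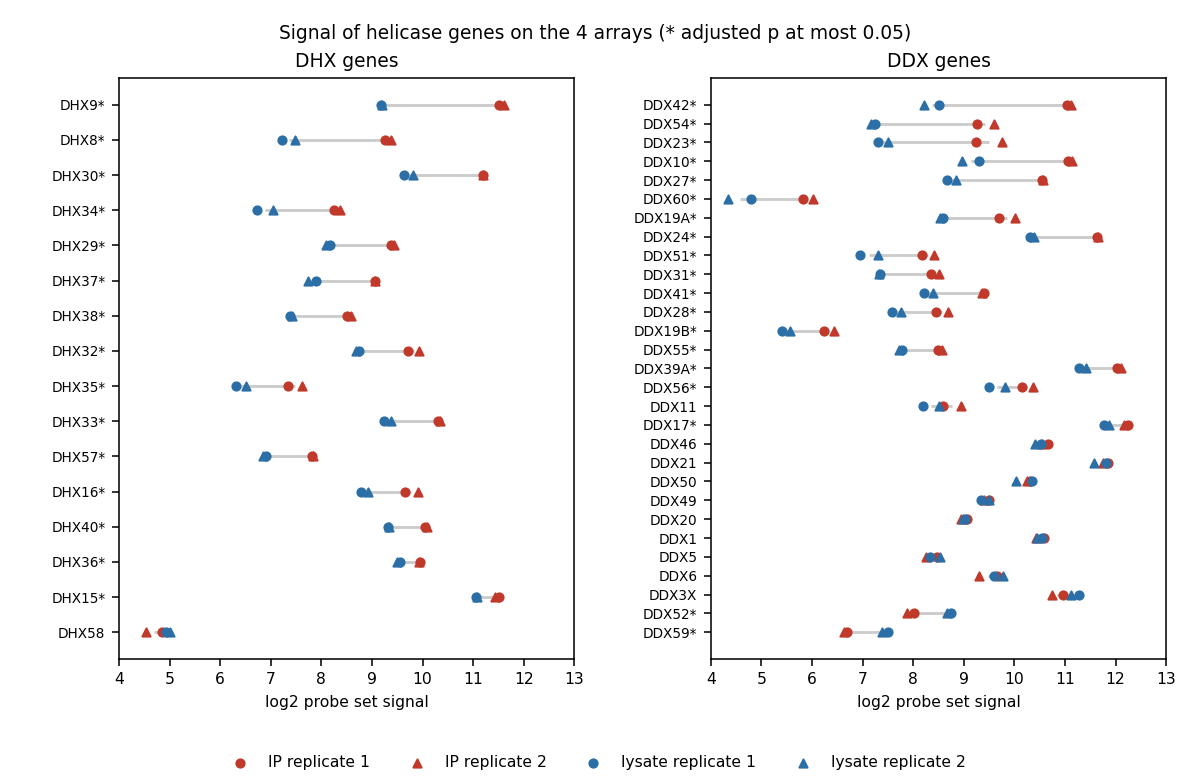
Log2 probe set signal (horizontal axis) of each tested DHX gene (left) and DDX gene (right) on the 2 IP arrays (red) and the 2 lysate arrays (blue), circles for replicate 1 and triangles for replicate 2, with genes ordered by change and an asterisk for an adjusted p of at most 0.05, which for DDX60 is no result, since it passed the minimum only through the IP. The red points lie right of the blue ones for 15 of 16 DHX genes, while the lower DDX rows show groups that overlap or lie in the reverse order.

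Among DDX genes of pre-mRNA splicing and mRNA export, 7 of 10 rose, none fell and 3 did not pass, with a median of 0.79. Over all genes tested, 35.0% rose and 28.8% fell. DDX42, a helicase that associates with the SF3B part of the U2 particle, showed the largest rise of any member, at rank 7 of all genes. It stood at 11.03 and 11.13 in the IP, against 8.52 and 8.21 in the lysate. The change was 2.72 ± 0.14 SE on the log2 scale (n = 2 each, limma adjusted p = 3.44e-05), or 6.57-fold. The other kept DDX42 probe set rose by 1.84.

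DDX23, the helicase that frees the 5′ splice site from the U1 particle, had 9.24 and 9.75 in the IP and 7.31 and 7.51 in the lysate. Its IP arrays differed by more than those of other strongly changed members, yet both stood above both lysate arrays, and the change was 2.09 ± 0.18 SE (n = 2 each, limma adjusted p = 5.89e-05). The other DDX23 probe set changed by 1.99. DDX41 and the export helicase DDX39A rose by 1.07 and 0.73.

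The mRNA export helicases DDX19A and DDX19B are near-identical neighbours on chromosome 16, and a probe set assigned to both was left out. DDX19A changed by 1.29 and DDX19B by 0.84, but the other kept DDX19A probe set changed by 0.09 and did not pass. DDX17, a splicing and transcription cofactor, changed by 0.39 (12.24 and 12.16 in the IP, 11.77 and 11.86 in the lysate, adjusted p = 0.0205), with other probe sets from 0.13 to 1.68. The DDX17 call was lost without IP replicate 1 (0.35), without lysate replicate 1 (0.34) or with no filter (0.39), and the value turned to -0.09 with hybridization control centring.

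DDX5, a close paralog of DDX17, was at 8.46 and 8.25 in the IP and 8.34 and 8.53 in the lysate, a difference of -0.08 (95% interval -0.39 to 0.24). DDX46, which acts when the U2 particle joins the pre-mRNA, changed by 0.13 (interval -0.14 to 0.41). DDX20, a member of the SMN complex that assembles small nuclear ribonucleoproteins, changed by 0.01 (interval -0.26 to 0.28) on its brightest probe set. The IP and lysate arrays overlapped for DDX5 and DDX20. The other DDX20 probe set stood at 8.63 and 8.38 in the IP against 7.84 and 7.35 in the lysate, a change of 0.91, and it was called higher in the fit over all probe sets.

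The 3 DDX genes listed for translation and mRNA storage did not pass, and their median change was -0.20. Of all 13157 genes tested, 4756 did not pass. DDX3X, which helps ribosomes start on structured leaders, was at 10.97 and 10.73 in the IP and 11.28 and 11.12 in the lysate. Both IP arrays were below both lysate arrays, and the change of -0.35 had an adjusted p of 0.0516 (limma). The DDX3X change passed as lower with the mean of its probe sets (-0.48), without IP replicate 1 (-0.47), with a signal minimum of 6, with an intensity trend and with hybridization control centring (-0.83). All 4 kept DDX3X probe sets had negative changes, down to -1.07.

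DDX6, the decay and storage helicase of P-bodies, was at 9.66 and 9.30 in the IP and 9.59 and 9.77 in the lysate, a difference of -0.20 (95% interval -0.56 to 0.15). DDX1, found in RNA transport granules and in the tRNA ligase complex, was at 10.59 and 10.42 in the IP and 10.55 and 10.45 in the lysate. Its change of 0.01 had an interval of -0.28 to 0.29. The arrays of the groups overlapped for DDX6 and DDX1. On the scale of the hybridization controls DDX1 and DDX6 passed as lower, at -0.47 and -0.68.

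Of 12 DDX genes for nucleolar ribosome assembly, 8 rose, 1 fell and 3 did not pass, with a median of 0.95. The shares of all genes tested were 35.0% that rose and 28.8% that fell. DDX54 had 9.26 and 9.59 in the IP and 7.24 and 7.16 in the lysate, a 4.67-fold rise (log2 change 2.22 ± 0.14 SE, n = 2 each, limma adjusted p = 3.44e-05). DDX10 had 11.06 and 11.13 in the IP and 9.30 and 8.97 in the lysate, a 3.90-fold rise. DDX27, on a probe set that can cross-hybridize, had 10.54 and 10.56 in the IP and 8.66 and 8.85 in the lysate, a 3.46-fold rise. In these 3 genes the IP arrays stood clear of the lysate arrays. The other DDX27 probe set changed by 1.46, and the other DDX54 probe sets changed by 0.94 and 0.39.

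DDX24, DDX51, DDX31, DDX55 and DDX56 rose by 1.29, 1.17, 1.11, 0.78 and 0.60. The other kept DDX51 probe set changed by 0.31 and did not pass in the fit over all probe sets. The DDX56 call was lost without lysate replicate 1 (0.44), with the mean of its probe sets (0.09, adjusted p = 0.51) and with hybridization control centring (0.12, adjusted p = 0.49). The second DDX56 probe set had a change of -0.43. DDX21, a nucleolar helicase that links ribosome assembly to RNA polymerases, changed by 0.10, its paralog DDX50 by 0.09 and DDX49 by 0.03, and none of the 3 passed. For DDX50 the choice of probe set set the sign, since its other kept probe sets changed by -0.49 and -0.69, and unique probe sets alone gave a call as lower.

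DDX52, the nucleolar gene that fell, was at 8.02 and 7.87 in the IP against 8.74 and 8.67 in the lysate. The lysate signal was 1.70-fold higher (log2 change -0.76 ± 0.12 SE, n = 2 each, limma adjusted p = 8.54e-04). The 2 remaining kept probe sets of DDX52 changed by -0.36 and 0.02. DDX59, which has been linked to ciliary Hedgehog signalling and had no listed role group, was the other DDX gene that fell. DDX59 was at 6.70 and 6.63 in the IP against 7.50 and 7.39 in the lysate, a change of -0.78 ± 0.12 SE (adjusted p = 6.76e-04). Its other kept probe sets changed by -0.69 and -0.08. The IP arrays lay below the lysate arrays for both genes.

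The mitochondrial ribosome assembly gene DDX28 changed by 0.89, with 8.44 and 8.69 in the IP against 7.58 and 7.77 in the lysate. Its other kept probe sets changed by 0.84 and -0.20, and the latter did not pass in the fit over all probe sets. DDX60, an interferon-induced gene linked to antiviral RNA sensing, was at 5.82 and 6.02 in the IP and 4.79 and 4.35 in the lysate. The lysate mean of DDX60 was 4.57, under the minimum, so it entered the test only through the IP. Its outcome is no result, although DDX60 is counted among the DDX genes that rose where it is not left out by name. DDX11, a DNA helicase of sister chromatid cohesion with near-identical pseudogene copies, changed by 0.40 and did not pass (adjusted p = 0.0661), on a probe set that can cross-hybridize. DDX11 passed as higher with a signal minimum of 6, with the mean of its probe sets (0.44), with an intensity trend, without lysate replicate 2 (0.56) and without IP replicate 1 (0.58), and its value was -0.08 with hybridization control centring.

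**Figure D3:**
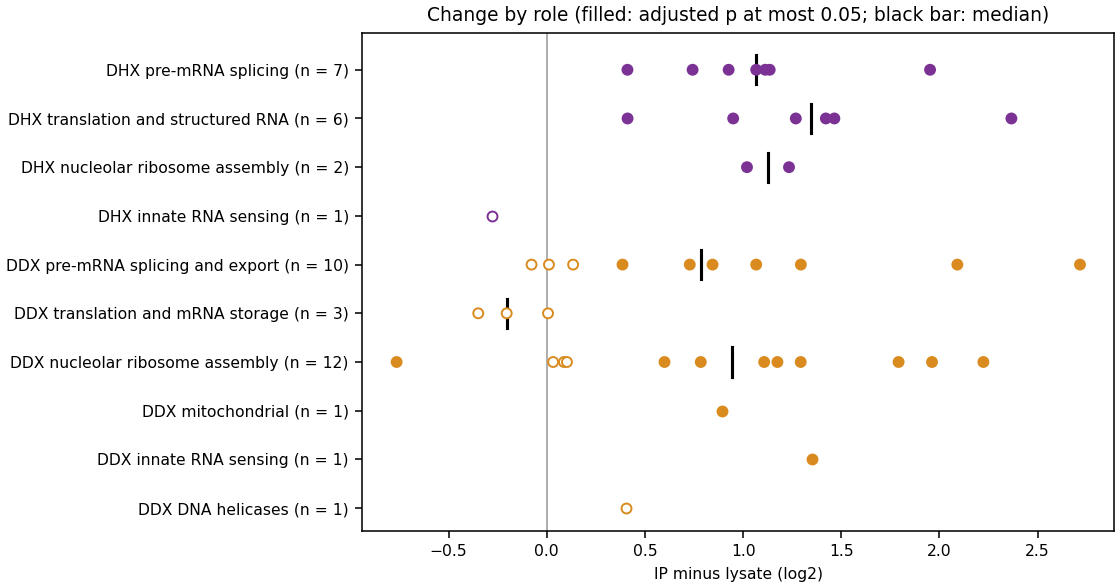
IP minus lysate change (horizontal axis, log2) of each tested DHX (purple) and DDX (orange) gene by role group, filled where the adjusted p is at most 0.05, with a black bar at the median of groups of 2 or more; DDX60 passed the minimum only through the IP. All genes of the first 3 DHX groups rose. The 3 DDX genes for translation and mRNA storage lie near or below 0. The DDX splicing and ribosome assembly groups spread from near or below 0 to above 2. DHX58, the gene of the DHX innate RNA sensing group, passed the minimum only through the lysate.

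The 5 DDX genes below the minimum were not tested. These were the germline genes DDX4, DDX25, DDX43 and DDX53, and DDX60L, with array values from 2.05 to 4.28. The noncoding members were the pseudogene DDX11L2, one of several similar copies, which changed by 0.58 (adjusted p = 0.00521), and the divergent transcript DDX19A-DT. DDX19A-DT was under the minimum, at 3.25 and 3.36 in the IP and 4.57 and 4.49 in the lysate.

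Probe sets of one gene share their target and are not replicates, so their agreement was described gene by gene. The fit over all probe sets needed smaller p-values, and its standard error for DHX9, for example, was 0.14, against 0.12 in the gene fit. On their brightest probe sets DHX15, DHX36, DDX17 and DDX56, called higher in the gene fit, did not pass in it. In the fit over all probe sets, 22 of the 31 kept DHX probe sets were higher and 1 lower, and 26 of the 63 kept DDX probe sets were higher and 5 lower. Over all 27281 probe sets at or above the minimum, 24.3% were higher and 22.3% lower, and with those under the minimum included the shares were 14.5% and 14.1%. Of the 10 DHX genes with 2 or more kept probe sets, 9 had changes of 1 sign in all of them, and DHX30 did not. Of the 21 such DDX genes, 14 had 1 sign and 7 had both signs. The same count over all genes was not made, so these counts describe the members only and are not read as a trait of either family. DHX30 was the member with probe sets called in opposite directions.

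**Figure D4:**
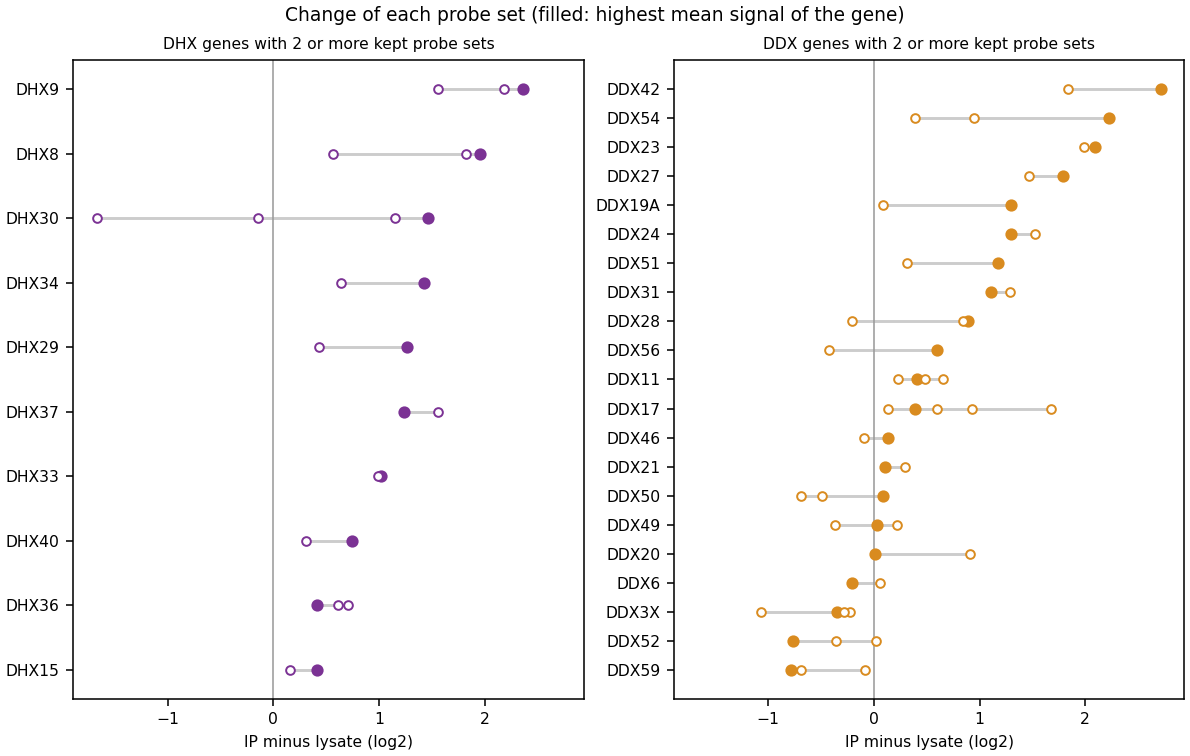
IP minus lysate change (horizontal axis, log2) of every kept probe set of the 10 DHX genes (left) and 21 DDX genes (right) with 2 or more, where the filled point is the probe set with the highest mean signal. The DHX30 points run from -1.67 to 1.47, while those of DHX33 lie within 0.1 of each other.

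Features that the choice of members did not use were also compared. The median genomic span was 47.8 kb for DHX genes and 28.9 kb for DDX genes, against 28.6 kb for all genes tested. The median GC content of the 250 bases before the start site was 59.2% for 14 DHX genes and 63.2% for 27 DDX genes, against 65.2% for 10635 genes.

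Promoters with a short string were counted on both strands of those 250 bases, for 6 strings looked at with the data known. The core of ETS factor sites, CCGGAA, was present in 46.3% of member promoters and 23.8% of the promoters of all genes tested. It was present in 38.7% of the 31 promoters of members called higher and in 70.0% of the 10 of members not called higher. For DHX promoters the share was 35.7% and for DDX promoters 51.9%. The overlapping string CGGAAG was present in 53.7% of member promoters and 26.7% of those of all genes tested. Its share was 54.8% for members called higher and 50.0% for the others, and 71.4% for DHX and 44.4% for DDX promoters. For TTTCCG the shares in members and in all genes tested were 12.2% and 14.1%, and for TATAAA 2.44% and 5.51%. For CCAAT they were 43.9% and 34.7%, and for GGGCGG 61.0% and 66.6%. The array measures RNA and not promoter activity, so these matches are descriptions of the sequence only. To let a reader see such a promoter, the 100 bases before the start are printed, 5′ to 3′, for the DDX and DHX gene with the largest rise and for the gene with the largest fall, from RefSeq on GRCh38.p14, with CCGGAA or its reverse complement in capitals. DDX42 lies at chr17:63774070-63774169 on the plus strand, DHX9 at chr1:182839247-182839346 on the plus strand and DDX59 at chr1:200669908-200670007 on the minus strand.
DDX42: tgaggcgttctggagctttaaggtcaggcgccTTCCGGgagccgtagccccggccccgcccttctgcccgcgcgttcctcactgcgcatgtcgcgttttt
DHX9: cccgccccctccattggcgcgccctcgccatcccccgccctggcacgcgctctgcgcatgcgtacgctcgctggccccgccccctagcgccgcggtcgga
DDX59: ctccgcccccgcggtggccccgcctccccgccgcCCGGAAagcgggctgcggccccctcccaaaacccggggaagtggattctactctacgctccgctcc
The stretch of DDX42, which rose, and that of DDX59, which fell, hold 1 match each, and that of DHX9 holds none.

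Other helicases and the partners of both families were set beside the members, from lists that were chosen with earlier results of these data known. Of 15 RNA helicases related to the DExD/H families under other names, 9 were tested, 8 rose, none fell and the median was 0.56. IFIH1, a sensor of viral duplex RNA, and EIF4A3, of the exon junction complex, changed by 1.68 and 1.00, and the mitochondrial SUPV3L1 by 0.20 (adjusted p = 0.157). Of 9 tested genes of the UPF1-like list, 6 rose and 2 fell, with a median of 0.83. MOV10L1, among the 9 and not called, cleared the signal minimum only through the lysate. ZNFX1 and UPF1, the helicase of nonsense-mediated decay, changed by 1.59 and 1.42, HELZ by -1.25 and DNA2 by -0.64.

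Of 14 DNA helicase genes, 10 rose and 2 fell, with a median of 0.81. ERCC3 of transcription factor TFIIH and RTEL1, which acts at telomeres, changed by 2.40 and 1.41, and the chromatin helicase gene HELLS and BRIP1 by -0.58 and -0.46. These counts of RNA and DNA helicases stand against the same 35.0% of all genes that rose and 28.8% that fell. A high share of rises was thus not seen in DHX and DDX genes alone, and whether the lists differ was not tested.

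Of 22 tested genes for G-patch proteins, some of which activate DHX helicases, 15 rose and 3 fell, with a median of 0.64. The splicing regulators RBM10 and RBM5 changed by 1.97 and 1.24, GPATCH2 by -0.57 and AGGF1 by -0.50. Of 19 tested genes for partners of DEAD-box helicases, 11 rose and 5 fell, with a median of 0.53. Both partner lists stand against 35.0% of all genes that rose and 28.8% that fell. CWC22, which brings EIF4A3 to the spliceosome, and SF3B1, a core protein of the U2 particle, changed by 1.35 and 1.31. LSM14A, a P-body protein that binds DDX6, and EIF4H, a helper of EIF4A, changed by -0.93 and -0.78. With hybridization control centring the medians of these 5 lists, in the order given, were 0.08, 0.35, 0.33, 0.16 and 0.05.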

How the data were processed

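Per the labels' protocols, biotin-labelled RNA was hybridized to U133 Plus 2.0 arrays. The values deposited by the authors lie on a log2 scale, as judged from their range, and array medians run between 4.67 and 4.71. How background was corrected, probes were summarised and arrays were normalized is not stated in the sources used here, and no detection calls were used. Of 54675 probe sets, 62 were controls and 41091 had 1 gene symbol in the platform annotation, with names updated through Entrez numbers to the GRCh38.p14 gene table. The contrast of IP against lysate was tested by limma 3.58.1 (R 4.3.3, lmFit and eBayes without covariates; residual degrees of freedom 2, prior 5.51), and p-values were adjusted over 13157 genes after Benjamini and Hochberg, with calls at 0.05. A second limma fit covered all probe sets other than controls, for single probe sets. The gene fit was also run on simulated data with independent noise and changes in few genes. Many genes changed in the data themselves, so that run checks the code only. Figures used matplotlib 3.10.9 and pandas 2.3.3. Members and lists were chosen with earlier results of these data known. Members with full values were the 6 largest DDX rises and falls and the 3 largest DHX rises and falls among calls whose groups do not overlap, and members with probe sets called in opposite directions; 2 DDX genes and no DHX gene qualified as falls. Up to 2 genes a direction were named from each other list. One alternative, without DDX60, was chosen after seeing the data. The others covered normalization, filter, choice of probe set, replicate block, spread estimate and each array left out.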

Additional observations from a re-analysis of the deposited data

How the results depend on the processing

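Of the 34 helicase genes called, 26 kept call and direction under each of the 12 alternatives that tested them; DDX17, DDX39A, DDX55, DDX56, DHX15, DHX30, DHX36 and DHX40 did not under at least 1. The 26 include DDX60, and leaving it out, which was added with the data seen, gave a DDX median of 0.66. Hybridization control centring, which shifts every change by the same amount, gave 8 DDX and 1 DHX genes lower, medians of 0.25 for DDX and 0.61 for DHX genes and -0.40 for all genes, and 2090 genes higher and 6385 lower in all, in place of 4611 and 3790. With it, the values of DDX1 (-0.47), DDX20 (-0.47), DDX49 (-0.45), DHX15 (-0.068), DHX36 (-0.068), DDX17 (-0.093), DDX11 (-0.076), DDX21 (-0.38), DDX46 (-0.35) and DDX50 (-0.39) turned sign. DDX50 turned to -0.37 with the mean of its probe sets and -0.49 with unique probe sets. The DDX median was 0.50 with no filter, 0.60 with a signal minimum of 6 and 0.49 with unique probe sets, and DHX minus DDX was 0.59, 0.51 and 0.63 there and 0.29 with the mean of a gene's probe sets, where 4 DDX genes were lower. Unique probe sets left 10 DHX genes, 9 of them higher, because fewer genes were tested; the causes of the other shifts were not tested. With an array left out, the DDX median ranged from 0.67 to 0.77, the DHX median from 1.00 to 1.19 and their difference from 0.32 to 0.42; 15 to 18 DDX and 13 to 15 DHX genes were higher, and 2 to 3 DDX and 0 to 1 DHX genes lower. The labels do not say that replicate numbers pair samples, and the deviations of same-numbered arrays correlated at 0.10. With the replicate number as a block, 18 DDX genes were higher and 3 lower and 15 DHX genes were higher, DDX3X (-0.35) passing as lower and DDX11 (0.40) as higher. Signals near the minimum, as in DHX58 and DDX60, have no known floor.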
